A study of Homo sapiens with 5 samples.

Results

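SNAREs are the membrane proteins that carry out the last step of vesicle fusion, and the genes described here are VAMP3 together with the other SNAREs, the NSF group that takes SNARE complexes apart and the SM proteins that guide their assembly. They were taken by gene symbol from a list of 48 names. Of these, 46 were among the 13822 genes in the deposited table, while VAMP5 and SNAP25 were not listed in it.

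The measurements were poly-A+ RNA-sequencing of RH4, an established human alveolar rhabdomyosarcoma cell line, and the question was which transcripts differed after an siRNA against the circular RNA circVAMP3. The control group, si-SCR, held 3 samples transfected with a control siRNA. The other group, si-circVAMP3, held 2 samples transfected with an siRNA directed at the back-splicing junction of circVAMP3. In both groups the siRNA was given at 30 nM with Dharmafect-1, the medium was exchanged after 24 h and whole-cell lysates were taken after another 24 h. The groups are limited to 1 cell line and to 1 siRNA against the junction, and the study's methods call the samples biological replicates. Library sizes worked out from the step size of the values were 26672000, 24992000 and 24947000 fragments, to the nearest 1000, for si-SCR replicates 1, 2 and 3, and 18534000 and 28798000 for si-circVAMP3 replicates 1 and 2, so the treated libraries were the shallowest and the deepest. The skeletal muscle regulator MYOD1 lay between 84.3 and 127 FPKM (fragments scaled to gene length and library size), the intermediate filament gene DES between 248 and 291.5 FPKM and the receptor gene FGFR4 between 183 and 251 FPKM, all of them markers of myogenic tumour cells. Of the muscle and tumour genes read, MYOG (log2 fold change -0.76, limma adjusted p = 0.00157) and FOXO1 (-0.26, 0.0242) were lower after si-circVAMP3. MYOD1, DES, FGFR4, CDH15, CHRNA1, MYCN, PAX3 and TFAP2B did not pass the test described below. The epithelial markers EPCAM, CDH1 and KRT18, the blood cell markers PTPRC and CD14 and the endothelial marker CDH5 were not listed. The endothelial marker PECAM1 was at 0.0777 to 0.153 FPKM.

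A fusion event needs an R-SNARE, usually a VAMP on the vesicle, to zip together with Qa, Qb and Qc SNAREs on the target membrane into a bundle of helices. SM proteins hold the SNAREs in register while the bundle forms, and afterwards the ATPase NSF and its SNAP adaptors pull it apart so that the SNAREs can be used again. VAMP3, also known as cellubrevin, is the R-SNARE of recycling endosomes and returns receptors such as the transferrin receptor and integrins to the cell surface.

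circVAMP3 is made from exons 3 and 4 of VAMP3, which lie at chr1:7777160-7777318 (159 bases) and chr1:7778118-7778169 (52 bases) on the plus strand of GRCh38, and the circle is 211 bases long. The siRNA is shown first because its 19-base duplex covers the junction, with 8 bases from exon 4 followed by 11 bases from exon 3. That duplex sequence occurred 1 time in the circle and 0 times in the linear VAMP3 transcript. The longest stretch of it in linear VAMP3 was 12 bases, and the same 12 bases stood in the coding sequence of VAMP2 and VAMP1, which encode the synaptobrevins closest to VAMP3. In the lines for the siRNA and the linear transcripts, capitals mark these 12 bases, and in the line for the circle they mark the whole duplex. All are written 5′ to 3′.
siRNA strand listed by the study: caucaucGGUGGUGGACAUuu
circVAMP3 junction: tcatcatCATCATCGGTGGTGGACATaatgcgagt
VAMP3: agtagatgaGGTGGTGGACATaatgcgagt
VAMP2: ggtggatgaGGTGGTGGACATcatgagggt
VAMP1: agtggaggaGGTGGTGGACATcatacgtgt
In VAMP3 the 12 bases run from the last base of exon 2 into exon 3, at chr1:7773511-7777170 across the intron. In VAMP2 they lie at chr17:8161756-8162249 on the minus strand and in VAMP1 at chr12:6465990-6466225 on the minus strand, each also across an exon junction.

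After si-circVAMP3, 9 of the 46 SNARE machinery genes were lower and 7 were higher, while 30 did not pass the test. These counts depended on single samples, with 3 lower and 1 higher without si-circVAMP3 replicate 2, 3 lower and 2 higher without si-circVAMP3 replicate 1, 5 lower and 4 higher without si-SCR replicate 2 and 9 lower and 4 higher without si-SCR replicate 1. The largest decrease was that of SNAP29 and the largest increase that of VAMP8, and all other changes lay within 0.5 on the log2 scale. In percent, 19.6 of the SNARE genes were lower and 15.2 were higher, against 15.8 and 14.4 of all 12423 genes tested, so the numbers of changed SNARE genes were close to the general level. The median log2 fold change was 0.10 over the SNARE genes and 0.006 over all genes tested. A gene was called changed when its Benjamini-Hochberg adjusted p from limma, over all genes tested, was below 0.05, and fold changes are differences of log2(FPKM + 0.5). In bulk RNA, a change in RNA per cell and a change in the mixture of cells cannot be told apart.

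**Figure D1:**
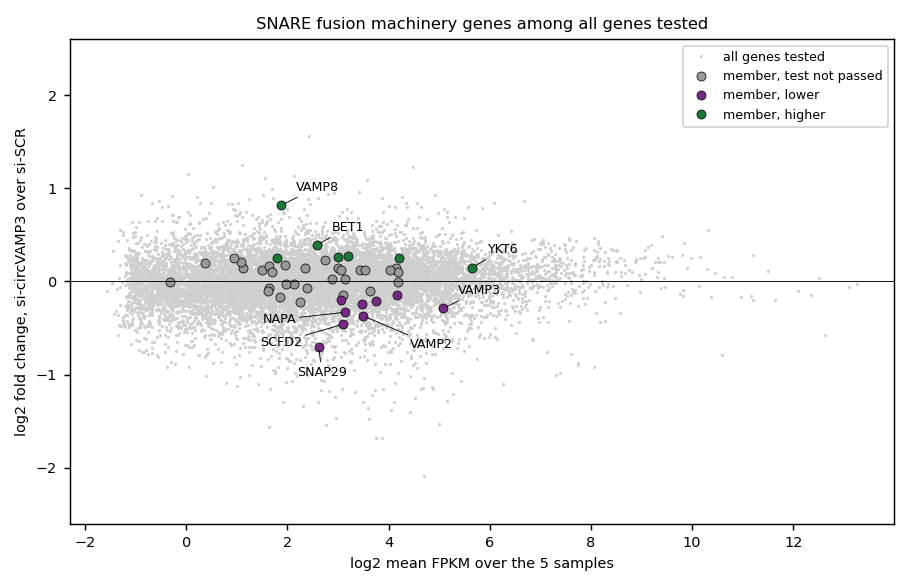
Each point is a gene, with its mean FPKM over the 5 samples on a log2 x axis and its log2 fold change of si-circVAMP3 over si-SCR on the y axis; grey dots are all 12423 genes tested and larger circles the 46 SNARE machinery genes, green where higher, purple where lower and grey where the test was not passed. SNAP29 at -0.70 and VAMP8 at 0.82 stand farthest from 0 among the SNARE genes, and the most abundant of them, YKT6, lies close to 0.

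The SNARE machinery genes were expressed at moderate levels. Their mean over the 5 samples ran from 0.799 FPKM for STXBP2 to 50.4 FPKM for YKT6, with a median of 7.68 FPKM against 4.78 FPKM over all genes in the table, and 14 of them were at 10 FPKM or more. VAMP3, at a mean of 33.8 FPKM, was the second most abundant. Recovered reads per gene and sample ran from 59 for VAMP8 to 5661 for YKT6, and 44 of the 46 genes had at least 100 reads in every sample, the exceptions being VAMP8 and STXBP2.

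Among the VAMPs, the host gene VAMP3 and its relative VAMP2 were lower and VAMP8 was higher, while VAMP1, VAMP4 and VAMP7 did not pass the test. VAMP3 (ENSG00000049245, chr1:7771296-7781432) was at 36.4, 35.4 and 37.4 FPKM in the si-SCR samples and at 29.4 and 30.2 FPKM in the si-circVAMP3 samples. Both treated samples lay below all 3 controls and the groups did not overlap. The group means were 36.4 ± 1.01 FPKM (SD, n = 3) and 29.8 ± 0.588 FPKM (SD, n = 2), a decrease of 18.2%. The log2 fold change was -0.29 ± 0.043 (SE) with an adjusted p of 0.00502, and it was 0.0512 when si-circVAMP3 replicate 1 was left out. These reads measure the gene as a whole in poly-A+ RNA and give no value for the circle, which has no poly-A tail.

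VAMP2, the synaptobrevin best known from regulated secretion, was at 11.9, 12 and 13.4 FPKM in si-SCR and at 9.76 and 9.30 FPKM in si-circVAMP3. Both treated samples were again below every control. The log2 fold change was -0.37 ± 0.066 (adjusted p = 0.00874), and the adjusted p was 0.0517 without si-circVAMP3 replicate 1 and 0.0749 without si-circVAMP3 replicate 2. VAMP2 shares 12.4% of its exon length with another gene on the same strand, so its value is less certain than that of VAMP3. VAMP1, which has the same 12-base stretch, was at 3.01, 3.43 and 3.09 FPKM in si-SCR and at 3.14 and 2.84 FPKM in si-circVAMP3. Here the groups overlapped, and the log2 fold change was -0.07 with a 95% interval from -0.27 to 0.12 and an adjusted p of 0.519. Its interval overlaps that of VAMP2, -0.52 to -0.21, and a difference between the 2 genes was not tested.

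VAMP8, or endobrevin, which serves fusion with late endosomes and lysosomes, was at 2.51, 2.95 and 2.64 FPKM in si-SCR and at 4.64 and 5.66 FPKM in si-circVAMP3. The treated samples were both above all controls, and the lower of them was still well clear of the highest control. The mean was 1.91 times the control mean, the log2 fold change was 0.82 ± 0.10 and the adjusted p was 0.00252. VAMP8 had 60, 66 and 59 reads in si-SCR and 77 and 146 in si-circVAMP3, so its counting error alone reached 13% in a sample. Its reads were the fewest of all SNARE genes in every sample except si-circVAMP3 replicate 2. There STXBP2 had 135 and VPS33B 138. VAMP7, an R-SNARE of late endosomes and lysosomes, was the steadiest VAMP in the plot of all samples, at 18.1 to 18.6 FPKM in both groups (log2 fold change -0.01, 95% interval -0.11 to 0.10). VAMP4 of the trans-Golgi network was at 3.17 FPKM in si-SCR and 2.92 FPKM in si-circVAMP3 on average, with overlapping groups and an adjusted p of 0.367.

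**Figure D2:**
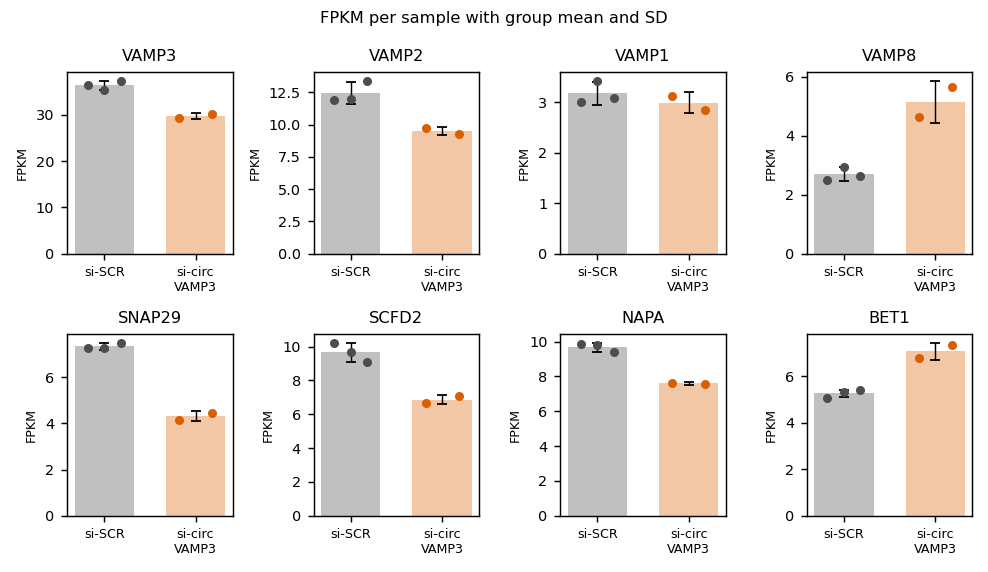
FPKM (y axis, starting at 0) of 8 SNARE machinery genes in the 3 si-SCR and 2 si-circVAMP3 samples, with points for samples, bars for group means and error bars for the SD. The groups are separate for VAMP3, VAMP2, VAMP8, SNAP29, SCFD2, NAPA and BET1, and overlap for VAMP1.

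YKT6 and the 3 SEC22 genes were read together as genes of traffic between the ER and the Golgi. YKT6 was higher and the 3 SEC22 genes did not pass the test. YKT6, a lipid-anchored SNARE of the Golgi and of autophagosomes, was at 47.2, 48.5 and 49.2 FPKM in si-SCR and at 54.1 and 53.0 FPKM in si-circVAMP3. The groups did not overlap, but the change was small, with a log2 fold change of 0.15 ± 0.040 and an adjusted p of 0.0324. The call of YKT6 was lost on leaving out si-SCR replicate 1 (adjusted p = 0.0778), si-SCR replicate 2 (0.0894), si-circVAMP3 replicate 1 (0.177) or si-circVAMP3 replicate 2 (0.121), and also under quantile normalization (0.0566), without the trend (0.078) and with the replicate block (0.0603). SEC22B, which acts on vesicles between the ER and the Golgi, had a log2 fold change of 0.12 and an adjusted p of 0.0798. SEC22C, a relative of SEC22B, was at 4.55, 5.31 and 5.24 FPKM against 4.27 and 4.23 FPKM (log2 fold change -0.22, adjusted p = 0.0768), and was called lower under voom (0.0473) and without si-SCR replicate 1 (0.0292). SEC22A, which shares 10.4% of its exon length with another gene on the same strand, had a log2 fold change of 0.12 (adjusted p = 0.239). The fold change of SEC22A was 0.06 without si-circVAMP3 replicate 1 and 0.18 without si-circVAMP3 replicate 2.

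The Qa syntaxins give each target membrane its identity, and of the 10 measured, STX5 and STX17 were higher, none was lower and 8 did not pass the test. STX5, the syntaxin of the Golgi, was the most abundant, at 17.4, 15.7 and 18.1 FPKM in si-SCR and at 21.4 and 19.3 FPKM in si-circVAMP3. STX17, which marks completed autophagosomes for fusion with lysosomes, was at 3.01, 3.23 and 3.33 FPKM in si-SCR and at 4.12 and 3.68 FPKM in si-circVAMP3. For both genes the treated samples lay above the controls, with si-circVAMP3 replicate 1 the higher of the pair. The log2 fold changes were 0.25 for STX5 (adjusted p = 0.0477) and 0.25 for STX17 (adjusted p = 0.0476). Both sat just inside the threshold, and without si-circVAMP3 replicate 1 the adjusted p was 0.266 for STX5 and 0.265 for STX17. Leaving out si-SCR replicate 1, si-SCR replicate 2 or si-circVAMP3 replicate 2 also ended the call, with adjusted p of 0.0752, 0.118 and 0.0809 for STX5 and 0.105, 0.111 and 0.0885 for STX17. STX5 also lost its call under median-ratio scaling (0.0505), quantile normalization (0.0565) and without the trend (0.0718), and STX17 with no filter (0.0561) and with the replicate block (0.0773).

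The Qa syntaxins among the usual partners of VAMP3 did not pass the test. STX4, the plasma membrane syntaxin that meets VAMP3 and VAMP2, was at 6.03, 6.32 and 6.32 FPKM in si-SCR and at 6.84 and 7.94 FPKM in si-circVAMP3. The treated samples were above the controls but differed from each other more than the controls did. The adjusted p was 0.0563 at a log2 fold change of 0.23. That fold change was 0.33 without si-circVAMP3 replicate 1 and 0.13 without si-circVAMP3 replicate 2. STX16 of the trans-Golgi network, which receives traffic from endosomes, had a log2 fold change of 0.14 (adjusted p = 0.0807), and 28.4% of its exon length is shared with the read-through gene STX16-NPEPL1. STX12, a syntaxin of recycling endosomes, went from a mean of 8.94 FPKM in si-SCR to 8.07 FPKM in si-circVAMP3, a log2 fold change of -0.14 with an adjusted p of 0.0818. STX1A, best known from synapses, had a log2 fold change of 0.21 (adjusted p = 0.0618). The remaining 4 were the plasma membrane syntaxins STX2 (0.12) and STX3 (-0.03), the ER syntaxin STX18 (0.17) and the late endosomal STX7 (0.14), given as log2 fold changes. STX7 was at 0.06 without si-circVAMP3 replicate 1 and at 0.23 without si-circVAMP3 replicate 2.

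Among the 11 Qb and Qc SNAREs, BET1, GOSR1 and STX6 were higher, VTI1B was lower and 7 did not pass the test. BET1, a Qc SNARE of vesicles that leave the ER, was at 5.08, 5.30 and 5.40 FPKM in si-SCR and at 6.80 and 7.34 FPKM in si-circVAMP3. GOSR1, a Qb SNARE within the Golgi, was at 8.43, 8.38 and 8.40 FPKM in si-SCR and at 10.2 and 10.3 FPKM in si-circVAMP3. For both genes the treated samples were above all controls by several times the spread of the controls. The log2 fold change of BET1 was 0.39 ± 0.061 (adjusted p = 0.00547), and that of GOSR1 was 0.27 ± 0.047 (adjusted p = 0.00801). STX6, which works with VAMP3 or VAMP4 on the way from endosomes to the trans-Golgi network, was at 7.24, 7.39 and 7.51 FPKM in si-SCR and at 8.74 and 9.21 FPKM in si-circVAMP3. Its groups did not overlap either, and its log2 fold change was 0.26 ± 0.053 (adjusted p = 0.0122). STX6 shares 5.6% of its exon length with another gene on the same strand. Without si-circVAMP3 replicate 2 the adjusted p was 0.0566 for BET1, 0.0688 for GOSR1 and 0.0986 for STX6, and without si-circVAMP3 replicate 1 it was 0.0323, 0.0591 and 0.0556.

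VTI1B, a Qb SNARE of late endosomes, shares 5.6% of its exon length with another gene on the same strand. It was at 18.8, 18.2 and 19.1 FPKM in si-SCR and at 16.9 and 16.8 FPKM in si-circVAMP3. The treated samples were below all controls, and the decrease was the smallest among the called SNARE genes, with a log2 fold change of -0.15 ± 0.044 and an adjusted p of 0.0447. VTI1B lost its call on leaving out any of the 5 samples, with adjusted p between 0.0614 (without si-SCR replicate 3) and 0.183 (without si-circVAMP3 replicate 2), and values of 0.0832, 0.0917 and 0.175 without si-SCR replicate 2, si-SCR replicate 1 and si-circVAMP3 replicate 1, and also under quantile normalization (0.0548), without the trend (0.0779) and with the replicate block (0.105). Its relative VTI1A, which joins STX6 and STX16 at the trans-Golgi network, had a mean of 3.63 FPKM in si-SCR and 4.18 FPKM in si-circVAMP3 (log2 fold change 0.18, adjusted p = 0.0726). STX10, the most abundant of this class at 18.2 FPKM, had a log2 fold change of 0.10 and an adjusted p of 0.126. Late endosomal STX8 had a log2 fold change of -0.17 (95% interval -0.43 to 0.09, adjusted p = 0.274), which was -0.30 without si-circVAMP3 replicate 1 and -0.05 without si-circVAMP3 replicate 2, and the ER protein BNIP1 had one of -0.10 (adjusted p = 0.275). The Golgi SNAREs BET1L and GOSR2 were at 0.12 and -0.03, and USE1 of the ER was at 0.10 on the same scale. USE1 was at 3.66, 3.37 and 2.36 FPKM in si-SCR, the widest spread for its level among the controls of this class, and the si-circVAMP3 samples at 3.51 and 3.19 FPKM fell inside it.

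**Figure D3:**
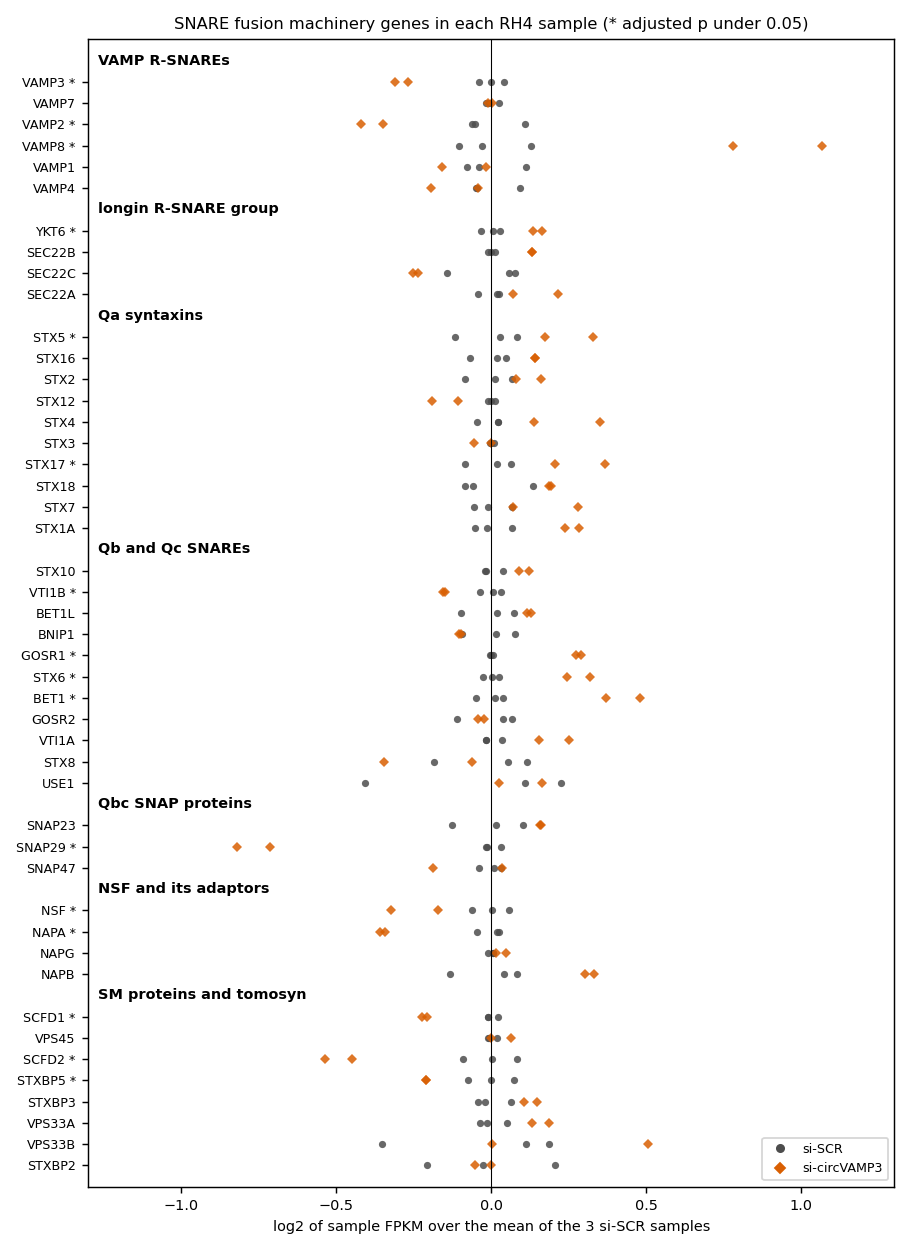
The x axis is the log2 ratio of each sample's FPKM to the mean of the 3 si-SCR samples for the 46 SNARE machinery genes on the y axis, grouped by role, with grey circles for si-SCR, orange diamonds for si-circVAMP3 and an asterisk where the adjusted p was below 0.05. SNAP29 lies farthest to the left and VAMP8 farthest to the right, and for VAMP7, STX3 and NAPG the samples of both groups lie close together.

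The Qbc SNAP proteins bring 2 helices to a SNARE bundle, and of the 3 measured only SNAP29 passed the test. SNAP29, which bridges STX17 and VAMP8 when autophagosomes fuse with lysosomes and also acts in endosomal traffic, was at 7.25, 7.26 and 7.50 FPKM in si-SCR and at 4.15 and 4.47 FPKM in si-circVAMP3. The 3 controls were close to one another, and both treated samples were far below them. The means were 7.34 ± 0.144 FPKM (SD, n = 3) and 4.31 ± 0.225 FPKM (SD, n = 2), a decrease of 41.3%. The log2 fold change was -0.70 ± 0.058 with an adjusted p of 0.000714. SNAP23, the widely expressed partner of STX4 at the plasma membrane, was at 6.99, 7.71 and 8.19 FPKM in si-SCR and at 8.51 and 8.52 FPKM in si-circVAMP3. The treated samples stood just above the highest control, and the log2 fold change was 0.15 with an adjusted p of 0.157. This fold change was 0.09 without si-SCR replicate 1 and 0.2 without si-SCR replicate 3. SNAP47 had overlapping groups and a log2 fold change of -0.07 (adjusted p = 0.518).

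Of the genes that take SNARE complexes apart, NSF and NAPA were lower and NAPG and NAPB did not pass the test. NAPA, which encodes alpha-SNAP, the adaptor that brings NSF to the complex, was at 9.86, 9.82 and 9.38 FPKM in si-SCR and at 7.64 and 7.56 FPKM in si-circVAMP3. NSF, the ATPase itself, was at 11.3, 11.8 and 12.3 FPKM in si-SCR and at 10.4 and 9.41 FPKM in si-circVAMP3. In both genes all treated samples were below all controls, with a clear gap for NAPA and a narrower one for NSF. The log2 fold change of NAPA was -0.33 ± 0.051 (adjusted p = 0.00524), and that of NSF was -0.24 ± 0.064 (adjusted p = 0.0333). NAPA lay marginally over the threshold of 0.05 without si-circVAMP3 replicate 2. NSF lost its call without si-SCR replicate 2 (0.0963), si-circVAMP3 replicate 1 (0.0595) or si-circVAMP3 replicate 2 (0.204), and with the replicate block (0.0903). NSF also has a near-identical pseudogene copy, NSFP1, which can take up reads but was not listed in the deposited table. NAPA shares 13.2% of its exon length with another gene on the same strand. Both values carry that uncertainty. Gamma-SNAP, encoded by NAPG, was at a mean of 7.31 FPKM in si-SCR and 7.46 FPKM in si-circVAMP3 (log2 fold change 0.03, 95% interval -0.09 to 0.15). NAPB, the beta form best known from neurons, was at 1.79, 1.84 and 1.59 FPKM against 2.14 and 2.19 FPKM, with an adjusted p of 0.0538 at a log2 fold change of 0.25.

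Among the SM proteins and tomosyn, SCFD1, SCFD2 and STXBP5 were lower, none was higher and 5 did not pass the test. SCFD2, a relative of the SM protein SCFD1, was at 10.2, 9.66 and 9.06 FPKM in si-SCR and at 6.66 and 7.06 FPKM in si-circVAMP3. SCFD1, or SLY1, the SM protein of STX5 on the way from the ER to the Golgi, was at 14.2, 14.2 and 14.5 FPKM in si-SCR and at 12.4 and 12.2 FPKM in si-circVAMP3. STXBP5, or tomosyn, which occupies syntaxins and so restrains secretion, was at 8.40, 8.84 and 9.32 FPKM in si-SCR and at 7.65 and 7.66 FPKM in si-circVAMP3. In each of these genes the treated samples were below every control, by the widest margin for SCFD2. The log2 fold changes were -0.46 ± 0.066 for SCFD2 (adjusted p = 0.00408), -0.21 ± 0.044 for SCFD1 (adjusted p = 0.0149) and -0.20 ± 0.059 for STXBP5 (adjusted p = 0.0463). SCFD1 lost its call without si-SCR replicate 2 (0.0545), si-circVAMP3 replicate 1 (0.0839) or si-circVAMP3 replicate 2 (0.0992), and STXBP5 without si-SCR replicate 2 (0.122), si-SCR replicate 3 (0.0633), si-circVAMP3 replicate 1 (0.182) or si-circVAMP3 replicate 2 (0.180). STXBP5 lost it under 8 of the 14 alternatives in all, the others being no filter (0.0511), quantile normalization (0.0718), no trend (0.0584) and the replicate block (0.104).

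The other SM genes gave small differences. STXBP3, or MUNC18C, the SM protein of STX4, had a log2 fold change of 0.12 (adjusted p = 0.149), and VPS45, the SM protein of STX16, had one of 0.03 (adjusted p = 0.691). VPS33A, a subunit of the HOPS tether, was at 0.14 (adjusted p = 0.109), and 21.6% of its exon length is shared with another gene. VPS33B was at 0.93, 1.36 and 1.29 FPKM in si-SCR and at 1.70 and 1.19 FPKM in si-circVAMP3, and 52.1% of its exon length is shared with another gene. Its samples overlapped widely, with a 95% interval of the log2 fold change from -0.17 to 0.56. STXBP2, or MUNC18-2, was the lowest of the 46, at 0.805 FPKM in si-SCR and 0.791 FPKM in si-circVAMP3. It shares 30.6% of its exon length with another gene.

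Set side by side by known complexes, an arrangement made after the values were seen, STX17, SNAP29 and VAMP8, which act together in autophagosome fusion, moved in different directions, with STX17 and VAMP8 higher and SNAP29 lower. On the ER-Golgi route STX5, BET1, GOSR1 and YKT6 were higher and SCFD1, the SM protein of STX5, was lower. There SEC22A, SEC22B, SEC22C, GOSR2, BET1L and the ER SNAREs STX18, USE1 and BNIP1 did not pass the test. The calls of STX5 and YKT6 were lost under quantile normalization and without the trend, while BET1, GOSR1 and SCFD1 kept theirs. The SNAREs taken here as usual partners of VAMP3 are not a full list of those it may pair with. VAMP3 itself was lower. Of these partners STX6 was higher, and STX4, SNAP23, STX12, STX16 and VTI1A did not pass the test.

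Genes that bind SNAREs or tether vesicles ahead of them were described from 7 lists, of which 64 genes were tested, and 5 were higher, 12 were lower and 47 did not pass the test, with a median log2 fold change of -0.01. The shares, 7.8% higher and 18.8% lower, stand beside 14.4% and 15.8% over all genes tested, and the single lists hold few genes each. Of the 18 other SNAREs and SNARE-binding proteins tested, 3 were higher and 3 lower. Among the decreases were those of the secretory vesicle chaperone DNAJC5 (-0.35, adjusted p = 0.00685) and of STXBP6, or amisyn (-0.24, 0.0211). The increases were in the secretory carrier membrane proteins SCAMP4 (0.29, 0.0289) and SCAMP3 (0.25, 0.00774) and the syntaxin-binding taxilin TXLNA (0.21, 0.0264).

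Of the 6 synaptotagmins and related factors tested, 2 were lower and none was higher, a small list beside the 15.8% lower over all genes tested. SYT11 was at 6.61, 6.29 and 6.58 FPKM in si-SCR and at 4.60 and 3.81 FPKM in si-circVAMP3. SYT7, a calcium sensor of slow release and lysosome exocytosis, was at 1.11, 1.12 and 0.913 FPKM in si-SCR and at 0.622 and 0.612 FPKM in si-circVAMP3. Both genes were lower in each treated sample than in any control, with log2 fold changes of -0.58 for SYT11 (adjusted p = 0.0041) and -0.47 for SYT7 (adjusted p = 0.0125). Mean FPKM was 35.2% lower for SYT11 and 41.1% lower for SYT7; near 1 FPKM the pseudocount shrinks the log2 fold change of SYT7, which ranged from -0.76 with voom to -0.34 with a pseudocount of 1. SYT7 lost its call without si-circVAMP3 replicate 1 (0.0732) or si-circVAMP3 replicate 2 (0.0788). SYT1, SYT2 and UNC13A were in the table but below the filter of 0.5 FPKM in at least 2 samples.

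Of the 8 subunits of COG, the tether that receives vesicles recycling within the Golgi, 4 were lower and none was higher. Over all genes tested 15.8% were lower and 14.4% higher, and 8 genes are too few to compare with these shares. COG2 was at 6.73, 7.21 and 7.51 FPKM in si-SCR and at 5.35 and 5.59 FPKM in si-circVAMP3, with a log2 fold change of -0.36 (adjusted p = 0.00877). The treated samples were below all controls for COG2, and likewise for COG3 (-0.30, adjusted p = 0.0209), COG5 (-0.28, 0.0224) and COG8 (-0.25, 0.0214). The median of the COG genes was -0.18, against 0.006 over all genes tested. In the GARP and EARP tethers, which meet endosome-derived vesicles, VPS54 alone of 5 was lower (-0.40, adjusted p = 0.00422). Among the 8 HOPS and CORVET genes the CORVET subunit TGFBRAP1 was higher (0.28, 0.0127) and VIPAS39, the partner of VPS33B, was lower (-0.25, 0.0186). In the exocyst, which tethers vesicles at the plasma membrane, EXOC5 was lower (-0.22, 0.0388) and the other 8 did not pass the test. Of the 10 Golgi and ER tethers, the Golgi stacking protein gene GORASP2 was higher (0.17, 0.0413). Of the 17 genes called over these lists, SYT11 and VPS54 were the only 2 called both without si-circVAMP3 replicate 1 and without si-circVAMP3 replicate 2, and 9 of the 17 were called without si-SCR replicate 2. TXLNA and GORASP2 also lost their calls without the trend and with the replicate block, EXOC5 under both and quantile normalization, and COG5 and COG8 with the replicate block.

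The bases of each transcript that could pair with the siRNA were also read, since VAMP3, VAMP2 and VAMP1 share 12 of them. The strand complementary to the listed one is taken as the guide strand here, since the listed strand has the sequence of the circle; its seed, bases 2 to 8, would pair with GTGGACA, and this heptamer was searched on the sense strand of 1 canonical transcript per gene. It occurred in 29.6% of the 12387 tested genes with such a transcript and in 14 of the 46 SNARE machinery genes, or 30.4%. Of the 9 SNARE genes that were lower, SNAP29, SCFD2, VAMP2, NAPA, VAMP3 and NSF held it, and SCFD1, STXBP5 and VTI1B did not. None of the 7 higher genes held it, and 8 genes that did not pass the test did, VAMP1 among them. VAMP1, VAMP2, VAMP3, SNAP29, NAPA and NSF each held 2 copies, and of these 6 genes only VAMP1 was not called lower, while of the 8 SNARE genes with 1 copy 1 was lower. Over all tested genes 36.2% of the 687 genes with 2 copies and 24.0% of the 2765 genes with 1 copy were lower. Genes with 2 copies also had longer transcripts, with a median of 5016 bases against 3900 bases with 1 copy. Among the SNARE genes these medians were 2457 and 2243 bases. In VAMP1, VAMP2 and VAMP3 alike the copies started 21 bases apart. Match lengths were measured only for unbroken matches that include this heptamer. Shown next are the longest such matches of SNAP29 and NAPA, the lower genes that follow VAMP2 and VAMP3 by this length. The shorter match of SCFD2 is shown as well. All lie in coding sequence, with capitals marking the unbroken match to the siRNA.
NAPA, chr19:47493423-47493432, minus strand: agacagagtTGGTGGACATcgagaaggc
SNAP29, chr22:20870380-20870388, plus strand: cagagaagaTGGTGGACAagatggacc
SCFD2, chr4:53365122-53365128, minus strand: gtggtttttGTGGACAgaaccctgg

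Over all tested genes the heptamer was counted in the same way. Of the 3670 tested genes with the heptamer 26.8% were lower and 8.5% higher, and of the 8717 genes without it 11.2% were lower and 17.0% higher. For the 1274 genes with the heptamer in the 3′ UTR, 33.5% were lower and 7.5% higher, and for the 2105 genes with it in coding sequence only, 23.9% were lower and 9.6% higher. The heptamer that the listed strand itself would pair with by the same bases, CGATGAT, was in 796 tested genes, of which 17.3% were lower and 14.1% higher. Genes with GTGGACA also had longer transcripts, with a median of 4282 bases against 2725 bases without it, whereas among the SNARE machinery genes those with it were the shorter ones, at 2253 against 3421 bases. Tested genes with the heptamer were also divided by the longest match that includes it. The share of lower genes was 28.1% at 7 bases, 25.5% at 8, 26.2% at 9 and 25.5% at 10 or more. Among the SNARE machinery genes it was 1 of 3 at 7 bases, 1 of 3 at 8, 1 of 4 at 9 and 3 of 4 at 10 or more, in numbers too small to order. Besides VAMP1, VAMP2 and VAMP3, 16 other tested genes held a match of 12 or more bases that includes the heptamer. A match is a description of the sequence, and whether it had a part in any of the changes was not tested.

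**Figure D4:**
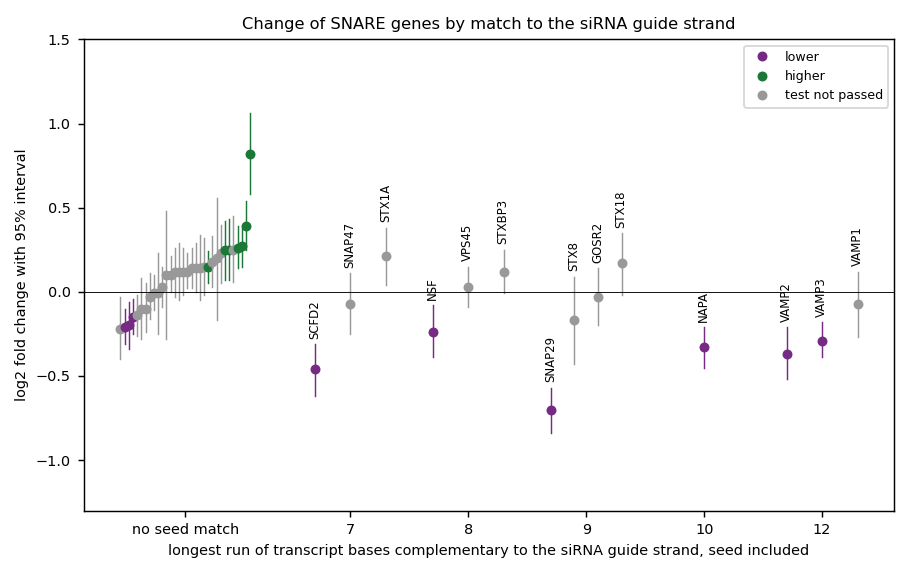
Log2 fold change with its 95% interval (y axis) of the 46 SNARE machinery genes. On the x axis is the longest unbroken match, in bases, between canonical transcript and siRNA guide strand that includes the seed heptamer GTGGACA. Other matches were not measured. Purple marks lower genes, green higher genes and grey genes that did not pass the test. All higher genes are in the column without a seed match, and SNAP29, with the largest decrease, has a match of 9 bases.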

How the data were processed

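Poly-A+ libraries of RH4 cells (TruSeq Stranded mRNA) were aligned by the authors to GRCh38 with Ensembl annotation using STAR 2.5.2b and counted per gene by strand with HTSeq. The authors removed low genes, and deposited gene-level FPKM from edgeR. Members and lists were chosen with earlier results of these data known. Since the table holds FPKM, the count model of the study was replaced by limma 3.58.1 (R 4.3.3, eBayes with trend) on log2(FPKM + 0.5), over 12423 of 13822 genes with at least 0.5 FPKM in at least 2 of 5 samples, with Benjamini-Hochberg adjustment and 3 residual degrees of freedom. Of the gene IDs, 13783 matched a symbol. All 5 values were whole reads, within 0.01 reads, for 9523 genes with the annotated exon length. This held for 13817 genes when a whole length implied by the values was also allowed. The library sizes used in the authors' scaling were obtained in this way. The first estimate for si-circVAMP3 replicate 1 gave nearly all even reads and was divided by 2. Limma's voom was run on these reads, an alternative chosen after seeing the data. The script of the fit, not the calls, was tested on simulated data. Other alternatives were the pseudocount, the filter, scaling, the trend, a fold threshold, a replicate block and leaving out each sample in turn. Named were VAMP3 and its usual partners, all called members, the most abundant of each class and the 5 largest uncalled changes, plus the called genes of the lists, of which 1 is not reported here. Further members are named for completeness, after their values were seen. Gene positions, exon overlaps and transcripts come from GENCODE 44, a later release than the one the authors used. The siRNA sequence comes from the study's list of oligonucleotides. Python 3.11.15 with numpy 2.4.6, pandas 2.3.3 and matplotlib 3.10.9 was used for the rest. No set test was run.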

Additional observations from a re-analysis of the deposited data

How the results depend on the processing

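Requiring an absolute log2 fold change over 0.58 besides the adjusted p left 133 higher and 334 lower genes, and 1 higher (VAMP8) and 1 lower (SNAP29) SNARE gene. On leaving out each sample in turn, the higher genes ranged from 476 to 1982 and the lower from 768 to 2027, the higher SNARE genes from 1 to 7 and the lower from 3 to 9. The log2 fold change of VAMP3 ranged from -0.31 to -0.27, with adjusted p of 0.0512 without si-circVAMP3 replicate 1. Fewest SNARE genes were called without si-circVAMP3 replicate 2 (4, all among the 16 called with every sample) and without si-circVAMP3 replicate 1 (5, all among the 16); with 1 treated sample left, that sample was assumed to vary like the controls. SNAP29, SCFD2 and VAMP8 were called under all 14 alternatives that refitted the data, though SCFD2 did not reach the fold threshold. The pseudocounts, the 1 FPKM filter (which left 45 SNARE genes) and voom kept all 16 calls, voom adding SEC22C, STX4, VTI1A and NAPB. No filter kept 14, median-ratio scaling kept 15, and quantile normalization and the fit without a trend 12 each, the former adding STX4, STX1A and NAPB and the latter STX1A and NAPB. Leaving out si-SCR replicate 1 added SEC22C.

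Among the genes followed over the alternatives, which left out the uncalled genes of the wider lists, the sign changed for uncalled genes near 0: VAMP7 without si-SCR replicate 1 (0.01) or si-circVAMP3 replicate 2 (0.00), GOSR2 without si-SCR replicate 2 (0.00), PER3 without si-SCR replicate 1 (0.00), USE1 under the replicate block (-0.06) and without si-SCR replicate 3 (-0.06), SNAP47 (0.03) and VPS45 (0.00) without si-circVAMP3 replicate 1, and STXBP2 under quantile normalization (0.03) and without si-SCR replicate 2 (0.05) or si-circVAMP3 replicate 2 (0.00). On leaving out samples VAMP7 ranged from -0.01 to 0.01, GOSR2 from -0.08 to 0.00, PER3 from -0.07 to 0.00, USE1 from -0.06 to 0.21, SNAP47 from -0.17 to 0.03, VPS45 from 0.00 to 0.06 and STXBP2 from -0.07 to 0.05. The causes were not tested.

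The groups share only replicate numbers 1 and 2. Deviations from the group means correlated at -0.15 for number 1 and -0.03 for number 2. With 2 treated samples, their deviations mirror each other. These values therefore cannot decide whether samples of equal number were handled together. With a replicate block on these 4 samples, 1413 genes were higher and 1623 lower, as were 5 and 6 SNARE genes, all 11 among the 16, and VAMP3 was at -0.27.

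Depth is a limit for VAMP8, with 59 to 146 reads a sample. With 2 treated samples, most calls were lost on leaving out either. The circular RNA, proteins and vesicle traffic were not measured here.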

Other observations

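The genes next to VAMP3, SNAP29 and VAMP8 were read as well. Of the 18 listed genes that lie nearest to them, 3 on each side of each, 2 were higher and 2 lower, or 22.2% called against 30.2% of all genes tested. The nearest on either side of VAMP3, the transcription factor gene CAMTA1 (log2 fold change 0.07, adjusted p = 0.464) and the clock gene PER3 (-0.04, 0.758), did not pass the test. Beside SNAP29, the lipid kinase gene PI4KA was at -0.03 (0.747) and the adaptor gene CRKL was lower at -0.25 (0.00629), a call lost without si-circVAMP3 replicate 1 or without si-circVAMP3 replicate 2 (adjusted p up to 0.0541). Beside VAMP8, GGCX was at -0.17 (0.0959) and RNF181 was higher at 0.19 (0.0433), a call made under 7 of 14 alternatives. For scale, AKT1, the kinase gene on which the study centred, was at 49.5, 51.3 and 50.2 FPKM in si-SCR and at 21.8 and 21.3 FPKM in si-circVAMP3, a log2 fold change of -1.20 that no SNARE gene reached. MYOG, the myogenic regulator of late differentiation, was at 175, 179 and 149 FPKM in si-SCR and at 101 and 96.6 FPKM in si-circVAMP3, a log2 fold change of -0.76 (adjusted p = 0.00157).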
